A study of Rattus norvegicus with 9 samples.

Results

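Left ventricle of Sprague-Dawley rats given angiotensin II (Ang II), the pressor peptide of the renin-angiotensin system, was compared with left ventricle of rats given saline. The comparison took the 6 RNA-seq libraries whose labels name Ang II alone (3 libraries) or saline (3 libraries), of 9 libraries in the series. The other 3 libraries come from rats given Ang II with sodium butyrate. They entered only the filter on low counts, the scaling and the shared estimate of the spread. All groups share the strain, the age (8 weeks at the start) and the time of sampling (28 days), and the labels name no transgene or other agent. The labels give no dose, route or sex. They also leave out whether each library is a different animal, so each p-value measures the spread between these samples, which may be technical. Each group is in a table of its own, so any difference in processing between tables and the difference between groups cannot be told apart.

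Ang II acts on heart muscle cells, fibroblasts and vessel walls through a G protein coupled receptor, and also raises the load on the ventricle by constricting arteries and by releasing aldosterone from the adrenal gland. Infusion of the peptide in rodents is a common model of cardiac hypertrophy and of fibrosis, in which fibroblasts lay down collagen and other matrix proteins. Transforming growth factor beta (TGF-beta), connective tissue growth factor and the natriuretic peptides are transcripts often followed in this setting.

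Levels are in CPM, estimated counts scaled to a common library size with edgeR's TMM factors, with n = 3 libraries in each group, and every set of 3 values lists libraries 1, 2 and 3 of a group in that order. Total estimated counts lay between 29284780 and 42742628 in the 6 libraries, and ribosomal RNA took from 9.08% to 18.81% of them. The ventricular transcript Myh7 (a myosin heavy chain) was at 12470, 5006 and 16030 CPM with saline and 15650, 12720 and 13250 CPM with Ang II. Myl2, the ventricular regulatory light chain, was at 597, 240.3 and 939.8 CPM with saline and 465, 484 and 525 CPM with Ang II. These ventricular markers were present in every library, and lowest in saline library 2. Ang II libraries were more alike than saline libraries: across genes, log-scaled levels correlated with r from 0.976 to 0.982 within Ang II, 0.953 to 0.971 within saline and 0.957 to 0.980 between the groups, and the spread of log2 levels was larger in saline for 66.6% of genes. Principal component 1 (35.3% of the variance) set saline library 2 apart, and principal component 2 (23.7%) set saline library 3 apart.

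Transcripts typical of atrial muscle were highest in saline library 2, several of them by a wide margin, and next highest in saline library 3 for most of them. Nppa, which encodes atrial natriuretic peptide, was at 55.5, 3464 and 186 CPM with saline and 51.5, 22.9 and 34.8 CPM with Ang II. Myl7, the atrial regulatory light chain, was at 0.18, 789 and 27.2 CPM with saline and 0.301, 0.465 and 0.116 CPM with Ang II. Saline library 2 was the highest for both genes by more than 10 times. Bmp10, a growth factor made by atrial muscle, was at 0.42, 646 and 22.2 CPM with saline and 0.693, 0.261 and 0.393 CPM with Ang II. All 10 atrial markers had their highest value in saline library 2, and their summed level was 191, 6039 and 361 CPM with saline against 201, 115 and 112 CPM with Ang II. For Myl7 and Bmp10, saline library 1 lay within the Ang II range.

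**Figure D1:**
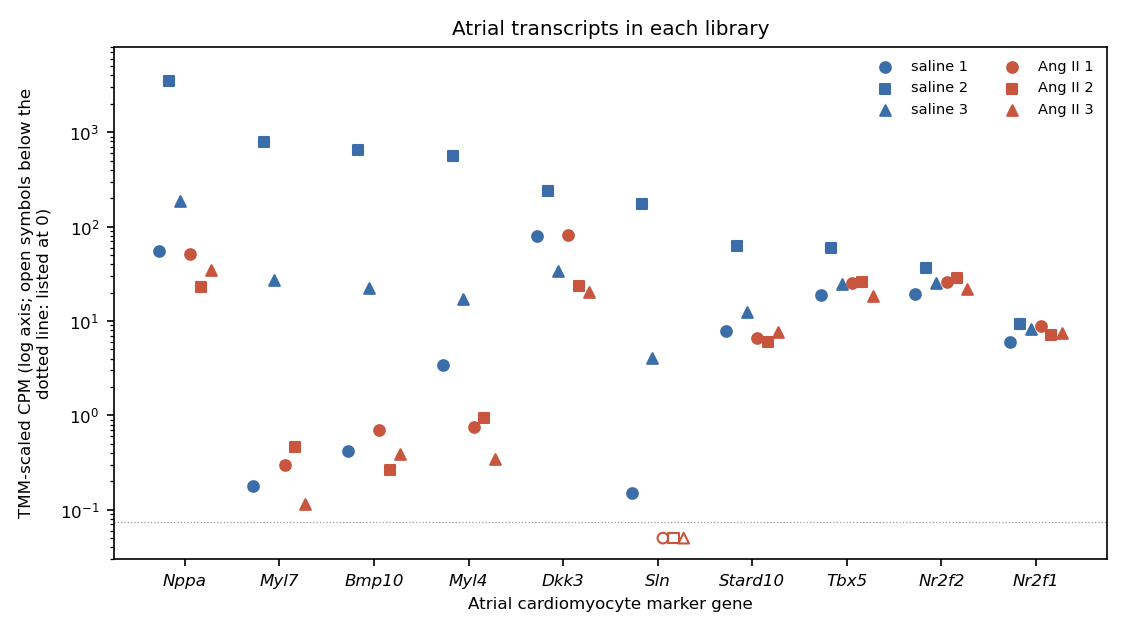
Level of each atrial marker gene (log axis, TMM-scaled CPM) in the 3 saline libraries (blue) and the 3 Ang II libraries (red), with open symbols where a gene is listed at 0. Saline library 2 (blue squares) is the highest for all 10 genes, at 3464 CPM for Nppa, and saline library 3 (blue triangles) comes next for Nppa, Myl7, Bmp10, Myl4, Sln and Stard10.

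Sln, which encodes sarcolipin, a regulator of the sarcoplasmic calcium pump in atrial muscle, was at 0.15, 173 and 4.01 CPM with saline and was listed at 0 in each Ang II library. Myl4, the atrial essential light chain, named after its values were seen, was at 3.39, 561 and 17.3 CPM with saline and 0.753, 0.929 and 0.346 CPM with Ang II. The groups did not overlap, with Ang II lower (4.97% of all genes), for Nppa, Sln, Myl4 and, also named after its values were seen, Stard10. But the size of the difference followed the saline library used. The log2 difference for Nppa was -5.08 (SE 1.28) with all libraries, -1.73 without saline library 2 and -0.61 without saline libraries 2 and 3. Over the 10 atrial markers the median log2 difference was -3.56, also with Sln set at the floor of 12 estimated counts, -1.17 without saline library 2 and -0.06 without both. For each list median that follows, values with libraries left out are given beside it, and a range is over leaving out each of the 6 libraries in turn. In whole tissue fewer cells of a type and less RNA per cell cannot be told apart.

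Markers of other cell types also differed between the saline libraries. Adipoq (adiponectin, made by fat cells) was at 0, 9.2 and 0 CPM in the saline libraries and at most 0.116 CPM with Ang II. Of the 6 libraries, saline 2 alone held Plin1 (4.26 CPM) and Cidec (2.55 CPM), whose proteins coat fat droplets, and both were listed at 0 in the other 5. These 3 fat cell genes were named after their values were seen. The 5 fat cell markers listed summed to 6.21, 32.7 and 5.82 CPM with saline and to 4.57 to 6.56 CPM with Ang II. Of the 2 tested, 1 was higher with Ang II and 1 lower, and 1 had its highest value in Ang II library 1. Their median log2 difference was 0.20, and 3.82 without saline library 2, where again 1 was higher and 1 lower. With 0.5 CPM added before the log, their median log2 ratio to the 6-library mean differed far less. It was -0.49 and -0.53 in saline libraries 1 and 3, and 0.35, -0.09 and -0.17 with Ang II. The value of 3.82 thus depends on how levels near 0 are handled. The 3 Schwann cell markers summed to 18.7, 54.8 and 17.4 CPM with saline and to 21.6 to 28.6 CPM with Ang II. The 4 smooth muscle markers summed to 249.5, 840 and 408 CPM against 341 to 434 CPM. Saline library 2 had the highest sum for each of these 3 cell types. The median log2 difference was -0.23 for the Schwann cell and -0.45 for the smooth muscle markers, and with 1 library left out the first ran from -0.50 without saline library 3 to 0.54 without saline library 2 and the second from -0.77 without saline library 1 to 0.28 without saline library 2. Saline library 3 was the highest for valve and fibrous skeleton markers, whose sum was 16.1, 33.8 and 86.8 CPM with saline and 14.5 to 17.9 CPM with Ang II. Fmod (fibromodulin, a collagen-binding proteoglycan of tendon and valve) was at 5.19, 20 and 61.4 CPM with saline and 4.52, 7.32 and 6.26 CPM with Ang II. Comp (cartilage oligomeric matrix protein) was at 0.54, 0.559 and 6.74 CPM with saline and 0, 0.494 and 0.924 CPM with Ang II. The part these cells play in the differences between groups was not tested.

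With all libraries, edgeR's quasi-likelihood test with Benjamini-Hochberg adjustment called 0 of 15467 genes (0.0% in either direction) at an adjusted p under 0.05, and the smallest adjusted p was 0.252. Before adjustment 918 genes (5.94%) had a p under 0.05, of which 378 were higher (2.44%) and 540 lower (3.49%). limma's voom fit with quality weights also called 0. DESeq2 called 57 genes (0.369%), of which 23 were higher (0.149%) and 34 lower (0.22%). In 1532 genes (9.9%) the groups did not overlap, with each Ang II library above each saline library in 764 (4.94%) and below in 768 (4.97%). Scaling by library totals alone gave 1081 higher and 403 lower, with the median log2 difference of all genes at 0.05 in place of -0.0045. Most genes differed little: of 10898 genes with a mean of at least 5 CPM, 96.4% had a log2 difference between -0.5 and 0.5, and the median standard error (SE) of that difference was 0.147.

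The genes described next are the 12 with the smallest edgeR p in each direction among genes of at least 5 CPM whose groups did not overlap; all 24 are among the DESeq2 calls. None was called by edgeR, where their adjusted p lay between 0.408 and 0.594, and over the alternatives the highest adjusted p of each lay between 0.96 and 1. Log2 differences and SE in the text are from edgeR unless another tool is named. Each SE is the size of the log2 difference divided by the square root of the test's F statistic. For these 24 genes the adjusted p values below are instead from DESeq2 unless edgeR is named, and that is the lowest of each gene's alternatives except for Sfrp2.

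**Figure D2:**
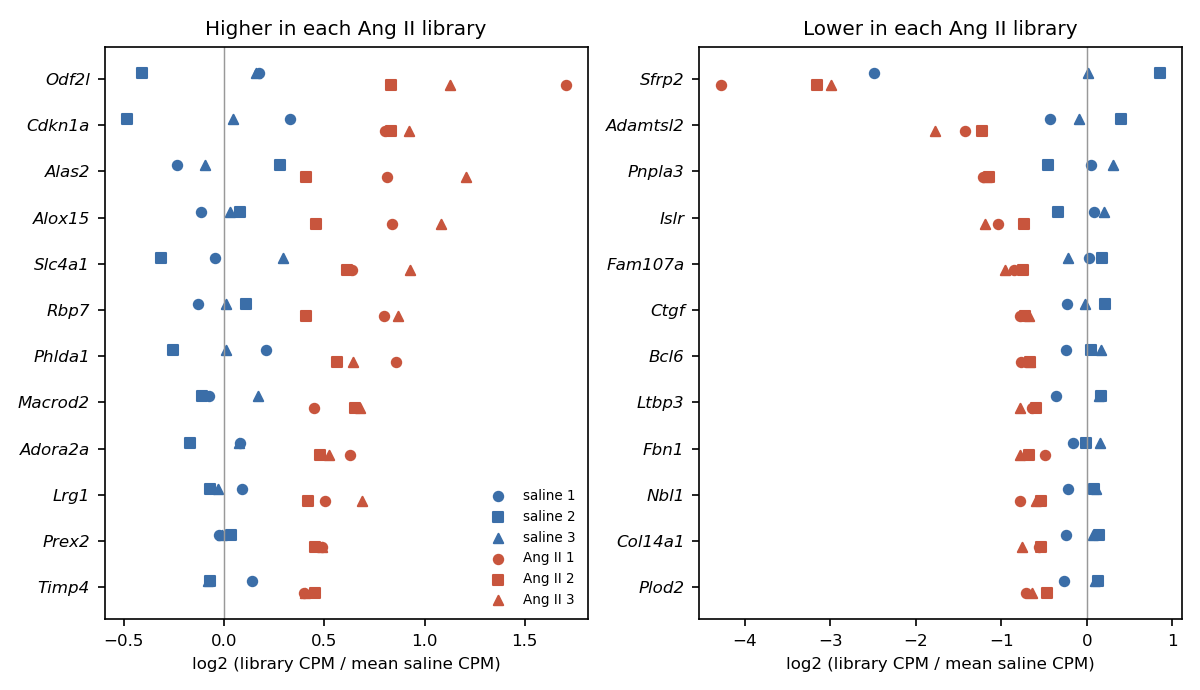
Each library's CPM as a log2 ratio to the mean saline CPM, for 12 genes whose Ang II values all lie above saline (left) and 12 whose Ang II values all lie below it (right), with saline in blue, Ang II in red and libraries 1, 2 and 3 as circles, squares and triangles. These genes were picked for this separation; the 3 Ang II points of Prex2 span 256 to 262 CPM, while those of Alas2 span 36.4 to 63 CPM.

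Alas2, the enzyme that starts haem synthesis in developing red cells, was at 23.2, 33.2 and 25.6 CPM with saline and 48, 36.4 and 63 CPM with Ang II, 1.8-fold higher on average (log2 0.84, SE 0.2, adjusted p = 0.0177). Slc4a1, the anion exchanger of the red cell membrane, was at 22.8, 18.9 and 28.9 CPM with saline and 36.6, 36 and 44.8 CPM with Ang II (log2 0.74, SE 0.155, adjusted p = 0.0111). Both had their highest value in Ang II library 3. The window of 250 bases before the Alas2 start site is printed here because this erythroid gene had the largest log2 difference of the red cell markers. It lies on the plus strand of chromosome X, chrX:22895200-22895449 in the RefSeq table for build GRCr8, with capitals marking a match to the GATA factor motif AGATAA and a match to the TEAD factor motif CATTCC on the other strand (GGAATG).
Alas2: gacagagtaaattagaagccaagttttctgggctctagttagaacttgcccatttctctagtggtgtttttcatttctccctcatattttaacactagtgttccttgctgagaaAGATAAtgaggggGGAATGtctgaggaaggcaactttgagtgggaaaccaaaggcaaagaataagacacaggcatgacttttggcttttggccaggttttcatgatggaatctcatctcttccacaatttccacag
On either strand, AGATAA is in 10.3% and CATTCC in 12.1% of 33469 RefSeq windows of this length, so each match is a description of these letters only.

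Of 5 red cell markers all 5 were higher with Ang II, against 49.0% of all genes tested, and in 3 the groups did not overlap (4.94% of all genes). Their median log2 difference was 0.70, where the median over all genes was -0.0045, and it was 0.69 without saline library 2 and 1.06 without saline libraries 2 and 3. Hba1, an alpha globin chain, was at 838, 1139 and 1330 CPM with saline and 1950, 1186 and 2120 CPM with Ang II, so the groups overlapped. Hbb, the beta globin, was at 376, 394 and 407 CPM with saline and 462, 424 and 779 CPM with Ang II. Globin copies are nearly identical and reads may be shared between them. The summed level of the 5 markers ran from 1751 to 2577 CPM with saline and from 2381 to 4197 CPM with Ang II, with Ang II library 2 (2381 CPM) below the highest saline library.

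The other higher genes have varied roles. Adora2a, an adenosine receptor that dilates vessels, was at 18, 15.2 and 18 CPM with saline and 26.4, 23.8 and 24.5 CPM with Ang II (log2 0.55, SE 0.111, adjusted p = 0.0199). Rbp7, a retinol-binding protein of endothelium and fat, was at 10.5, 12.4 and 11.6 CPM with saline and 19.99, 15.3 and 21 CPM with Ang II, 1.63-fold higher on average (log2 0.70, SE 0.144, adjusted p = 0.017). Lrg1, a secreted glycoprotein that modulates TGF-beta signalling in endothelium, was at 18.9, 17 and 17.4 CPM with saline and 25.2, 23.8 and 28.7 CPM with Ang II (log2 0.54, SE 0.117, adjusted p = 0.0369). In these 3 genes the differences were 1.46-fold to 1.63-fold. Prex2, an exchange factor for the small GTPase Rac, varied little within groups, at 184, 192 and 186 CPM with saline and 262, 256 and 262 CPM with Ang II (log2 0.48, SE 0.108, adjusted p = 0.0111). Alox15, a lipoxygenase that oxidises arachidonic and linoleic acid, was at 16.2, 18.5 and 17.9 CPM with saline and 31.3, 24.1 and 37.1 CPM with Ang II, 1.76-fold higher on average (log2 0.82, SE 0.192, adjusted p = 0.0275).

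Cdkn1a, an inhibitor of cyclin-dependent kinases that stops the cell cycle, was at 26.3, 15 and 21.6 CPM with saline and 36.5, 37.4 and 39.8 CPM with Ang II, 1.81-fold higher on average (log2 0.85, SE 0.203, adjusted p = 0.0246). Phlda1, a pleckstrin-like protein induced by growth and stress signals, was at 29.96, 21.7 and 26.1 CPM with saline and 47, 38.3 and 40.5 CPM with Ang II (log2 0.69, SE 0.158, adjusted p = 0.0275). The saline values of both were lowest in library 2, and without saline libraries 2 and 3 the log2 difference of Cdkn1a was 0.52. Timp4, the metalloproteinase inhibitor most typical of heart, was at 66.7, 57.8 and 57.4 CPM with saline and 79.9, 83.1 and 80.1 CPM with Ang II (log2 0.42, SE 0.0901, 0.28 without saline libraries 2 and 3, adjusted p = 0.0176). Macrod2, an enzyme that removes ADP-ribose from proteins, was at 59.3, 57.8 and 70.3 CPM with saline and 85.3, 98.2 and 99.99 CPM with Ang II (log2 0.60, SE 0.111, adjusted p = 0.000982). Odf2l, a protein of the centriole, was at 7.47, 4.97 and 7.4 CPM with saline and 21.5, 11.8 and 14.4 CPM with Ang II, 2.41-fold higher on average, the largest ratio of means among these 12 (log2 1.27, SE 0.244, adjusted p = 0.00184). Ang II library 1 was the highest for Odf2l, and both other Ang II libraries were also above all saline values.

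Among the lower genes, Adamtsl2 had the smallest p. It encodes a secreted protein that binds fibrillin microfibrils and latent TGF-beta binding protein, and was at 17.8, 31.6 and 22.5 CPM with saline and 8.94, 10.2 and 6.98 CPM with Ang II, 2.75-fold lower on average (log2 -1.46, SE 0.23, edgeR adjusted p = 0.408, adjusted p = 1.58e-05). The log2 difference was -1.21 without saline library 2 and -1.03 without saline libraries 2 and 3. Fbn1, which encodes fibrillin of those microfibrils, was at 457, 506 and 568 CPM with saline and 365, 319 and 296 CPM with Ang II (log2 -0.64, SE 0.131, adjusted p = 0.00164). Ltbp3, a latent TGF-beta binding protein, was at 59.9, 86.3 and 85 CPM with saline and 49.5, 51 and 44.9 CPM with Ang II (log2 -0.67, SE 0.139, adjusted p = 0.00826). In these 3 genes saline library 1 was the lowest of its group and still above every Ang II library. Without saline library 1, edgeR called Ltbp3 (log2 -0.82, adjusted p = 0.0404; 0.00826 to 1 over the alternatives), and without saline libraries 2 and 3 its difference was -0.31.

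Ctgf (connective tissue growth factor, also named Ccn2), a matricellular protein and a well known target of TGF-beta and of the TEAD factors, was at 64.3, 88.2 and 74.9 CPM with saline and 44, 45.8 and 47.6 CPM with Ang II, 1.66-fold lower on average (log2 -0.73, SE 0.149, adjusted p = 0.00511). The difference was -0.61 without saline library 2 and -0.49 without saline libraries 2 and 3. Its upstream window is shown with that of Nppa because these are the most used markers of the fibrotic and the loaded heart whose groups did not overlap, and both lay lower with Ang II. For Nppa the groups nearly met, with saline library 1 at 55.5 CPM and Ang II library 1 at 51.5 CPM. Without saline libraries 2 and 3 the log2 difference of Nppa was -0.61, against -5.08 with all libraries. The Ctgf window is on the minus strand, chr1:22624615-22624864, and the Nppa window on the plus strand, chr5:163711934-163712183, both from RefSeq build GRCr8, with capitals marking the same TEAD motif on the other strand and the TATA box TATAAA.
Ctgf: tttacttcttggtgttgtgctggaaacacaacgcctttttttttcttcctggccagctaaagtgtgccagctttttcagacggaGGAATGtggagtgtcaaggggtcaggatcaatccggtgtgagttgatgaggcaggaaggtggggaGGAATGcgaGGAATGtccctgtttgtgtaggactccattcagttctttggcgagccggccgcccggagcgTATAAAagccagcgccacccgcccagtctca
Nppa: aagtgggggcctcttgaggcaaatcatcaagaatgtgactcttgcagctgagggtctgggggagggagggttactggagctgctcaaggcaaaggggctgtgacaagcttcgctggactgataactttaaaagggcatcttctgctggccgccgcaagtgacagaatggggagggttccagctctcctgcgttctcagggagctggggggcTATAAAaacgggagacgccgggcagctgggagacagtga
The Ctgf window held 3 matches to CATTCC on its other strand, starting 166, 101 and 92 bases before the start site, and the Nppa window held none. Each held 1 TATAAA, starting 31 bases before the start in Ctgf and 39 in Nppa, a run that is in 12.9% of RefSeq windows of this length on either strand. Of the 12 lower genes 11 had a window in the table, and 2 of these (Fam107a and Ctgf) held CATTCC; of the 12 higher genes 8 had a window, and 2 (Timp4 and Alas2) held it.

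Islr, a leucine-rich repeat protein of stromal cells, was at 28.5, 21.2 and 31 CPM with saline and 13.1, 16.2 and 11.8 CPM with Ang II, 1.97-fold lower on average (log2 -0.98, SE 0.173, adjusted p = 0.000982). This difference was -1.12 without saline library 2, -0.86 without saline library 3 and -1.06 without both. Col14a1, a collagen that lies on the surface of fibrils, was at 140, 183 and 174 CPM with saline and 112, 114 and 97.9 CPM with Ang II (log2 -0.62, SE 0.116, -0.37 without saline libraries 2 and 3, adjusted p = 0.000982). Plod2, which hydroxylates lysines in the ends of collagen chains before crosslinking, was at 33.4, 44 and 43.1 CPM with saline and 24.5, 29.1 and 25.7 CPM with Ang II (log2 -0.60, SE 0.1254, -0.34 without saline libraries 2 and 3, adjusted p = 0.0177). Nbl1, a secreted antagonist of bone morphogenetic proteins, was at 27.5, 34 and 34.7 CPM with saline and 18.6, 22.1 and 21.3 CPM with Ang II (log2 -0.63, SE 0.128, -0.41 without saline libraries 2 and 3, adjusted p = 0.0159). Sfrp2, a secreted modulator of Wnt signalling, ran from 2.4 to 24.4 CPM within saline, at 2.4, 24.4 and 13.6 CPM, and was at 0.693, 1.51 and 1.69 CPM with Ang II (log2 -3.36, SE 0.681, adjusted p = 0.00679). For Sfrp2 the log2 difference was -2.60 without saline library 2 and -0.88 without saline libraries 2 and 3, and leaving out saline library 1, its lowest, brought an edgeR call (log2 -3.86, adjusted p = 0.0065; 0.0065 to 1 over the alternatives).

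Pnpla3, a lipase of fat droplets, was at 7.23, 5.13 and 8.67 CPM with saline and 3.01, 3.17 and 3.12 CPM with Ang II, 2.26-fold lower on average (log2 -1.18, SE 0.219, adjusted p = 0.00478). Bcl6, a transcriptional repressor, was at 25.2, 31 and 33.6 CPM with saline and 17.6, 18.9 and 18.9 CPM with Ang II (log2 -0.70, SE 0.14, adjusted p = 0.0111). Fam107a, an actin-binding protein linked to stress hormones, was at 16.6, 18.5 and 14 CPM with saline and 9.09, 9.78 and 8.41 CPM with Ang II (log2 -0.85, SE 0.143, adjusted p = 0.00117). Leaving out saline libraries 2 and 3 moved the differences of these genes to -1.22 for Pnpla3, -0.45 for Bcl6 and -0.87 for Fam107a.

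Of the 57 genes called by DESeq2 the groups did not overlap in 51, 41 had a mean of at least 5 CPM, and 10 were listed at 0 in all libraries of a group. The calls depended on the libraries: leaving out saline library 1, 2 or 3 gave 232, 137 and 41 calls, and leaving out Ang II library 1, 2 or 3 gave 63, 56 and 21. Of the 57 genes 10 were called in all 6 of these fits, among them Adamtsl2, Odf2l, Sfrp2, Wisp2, Bcan, Ppp1r35, Zfp647 and a pair of unnamed loci. Wisp2 (Ccn5), a matricellular relative of Ctgf without its growth-promoting domain, was at 1.83, 8.8 and 6.74 CPM with saline and 0.482, 1.1 and 0.739 CPM with Ang II, 7.47-fold lower on average (log2 -2.90, SE 0.591, adjusted p = 0.000562, 0.000562 to 1 over the alternatives). For Wisp2 the difference was -2.46 without saline library 2 and -1.24 without saline libraries 2 and 3. Bcan (brevican, a proteoglycan) was at 0.27, 1.78 and 1.08 CPM with saline and was listed at 0 in each Ang II library. Ppp1r35, a regulatory partner of a protein phosphatase, was listed at 0 in each saline library and was at 1.26, 0.726 and 1.13 CPM with Ang II. Zfp647, a zinc finger gene, was likewise listed at 0 with saline and was at 0.843, 0.987 and 0.624 CPM with Ang II. The locus LOC100910581, named after its values were seen, had nearly the same values as Ppp1r35, at 1.2, 0.784 and 1.02 CPM with Ang II and 0 with saline, so their reads may be shared. Rpl8, a ribosomal protein gene with many copies, was called by DESeq2 although it was listed at 0 in all Ang II libraries and in saline library 2 too, at 8.37, 0 and 12.4 CPM with saline.

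DESeq2 also called other genes outside the naming rule, of which some are named here after their values were seen. Vcan (versican, a large proteoglycan of loose matrix) was at 107, 215 and 227 CPM with saline and 106, 85.6 and 78.9 CPM with Ang II (log2 -1.02, SE 0.286, adjusted p = 0.0326, 0.0326 to 1 over the alternatives). Cilp, a matrix protein of cardiac fibroblasts, was at 22.2, 17.6 and 47.1 CPM with saline and 11.8, 14.3 and 10.9 CPM with Ang II (log2 -1.23, SE 0.336, adjusted p = 0.0369, 0.0369 to 1 over the alternatives). Pi16, a marker of adventitial fibroblasts, was at 33.6, 41.4 and 61.1 CPM with saline and 29.7, 26.5 and 21.6 CPM with Ang II (log2 -0.81, SE 0.202, adjusted p = 0.0416, 0.0416 to 1 over the alternatives). Each of these 3 fibroblast or matrix genes was lower in all Ang II libraries, and without saline libraries 2 and 3 their log2 differences were -0.25, -0.85 and -0.38. Ahnak, a giant scaffold protein of the cell membrane, was higher, at 1764, 1779 and 1930 CPM with saline and 1992, 3492 and 3285 CPM with Ang II (log2 0.68, SE 0.186, adjusted p = 0.0369, 0.0369 to 1 over the alternatives), but its highest transcript taken alone was lower with Ang II (log2 -0.38). Hamp (hepcidin, the iron hormone) was called as lower with 1.68, 136 and 8.55 CPM in saline and 2.17, 1.45 and 1.85 CPM in Ang II (adjusted p = 0.0413, 0.0413 to 1 over the alternatives), where saline library 2 carried the difference: it was -1.48 on the log2 scale without that library and 0.12 without saline libraries 2 and 3.

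Genes of the collagen matrix were mostly lower with Ang II. Over 4 lists together (collagens, matricellular proteins and glycoproteins, collagen processing and turnover, fibroblast markers) 76 of 90 tested genes were lower and 14 higher, against 51.0% lower among all genes. In 24 of the 90 each Ang II library lay below each saline library, and in 2 above (4.97% and 4.94% of all genes). Their median log2 difference of -0.44 was -0.27 without saline library 2 and -0.03 without saline libraries 2 and 3, so against saline library 1 alone these genes were centred near 0. All 8 fibroblast markers were lower, with a median of -0.41, -0.22 without saline library 2 and -0.0046 without both. No matrix gene was called by edgeR with all libraries. The 10 atrial markers, the Schwann cell and the smooth muscle markers were highest in saline library 2 and the valve markers in saline library 3, the same libraries that held the highest value of every matricellular gene tested, and their part in these medians was not tested.

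Of 24 collagen genes 17 were lower, with a median of -0.21 (-0.10 without saline library 2, 0.05 without libraries 2 and 3). In 4 the groups were apart with Ang II lower, and in none with Ang II higher (4.97% and 4.94% of all genes). Col1a1, the main chain of fibrillar collagen, was at 325, 542 and 645 CPM with saline and 280.3, 328 and 313 CPM with Ang II (log2 -0.71, SE 0.218, edgeR adjusted p = 0.74), so saline library 1 lay within the Ang II range. Col1a2, its partner chain, was at 168, 273 and 280 CPM with saline and 153, 172 and 167 CPM with Ang II. Col3a1, the fibrillar collagen of pliable tissue, was at 1078, 1956 and 1539 CPM with saline and 1100, 1163 and 1095 CPM with Ang II. All 3 chains were high in saline libraries 2 and 3 only, and without those their log2 differences were -0.08, -0.03 and 0.05. Col12a1, a collagen of tendon and loaded matrix, was at 17.7, 39.2 and 75.4 CPM with saline and 26.4, 20.9 and 16.3 CPM with Ang II. Col6a3, a microfibrillar chain near the upper end of the list, was at 342, 402 and 367 CPM with saline and 393, 402 and 392 CPM with Ang II (log2 0.09, SE 0.11).

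All 32 tested matricellular proteins and matrix glycoproteins averaged lower with Ang II (51.0% of all genes), with no overlap in 12 (4.97% of all genes), and a median of -0.67. That median was -0.61 without saline library 2 and -0.09 without saline libraries 2 and 3, where 22 of 32 were lower. Of the 32 genes 14 had their highest value in saline library 2 and 18 in saline library 3. Thbs4, a thrombospondin of stressed heart and tendon, was at 2.79, 12 and 81.6 CPM with saline and 1.87, 3.22 and 2.38 CPM with Ang II. Ltbp2, a latent TGF-beta binding protein, was at 8.91, 18.7 and 64.2 CPM with saline and 3.43, 6.01 and 5.71 CPM with Ang II. Postn (periostin, made by activated fibroblasts) was at 13.2, 14.8 and 91.7 CPM with saline and 8.64, 9.87 and 9.52 CPM with Ang II. In these 3 genes saline library 3 was several times above the other saline libraries. Without saline libraries 2 and 3 the log2 differences were -0.16 for Thbs4, -0.82 for Ltbp2 and -0.49 for Postn. Fn1 (fibronectin) was at 137, 395 and 288 CPM with saline and 162, 160.2 and 124 CPM with Ang II, with saline library 1 inside the Ang II range. Sparc (a collagen-binding matricellular protein) differed least, at 1183, 1065 and 1325 CPM with saline and 1133, 1025 and 1104 CPM with Ang II (log2 -0.13, SE 0.107).

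Of 30 genes of collagen folding, crosslinking and turnover 23 were lower, 7 with no overlap (4.97% of all genes), and 7 higher, 2 with no overlap (4.94% of all genes). The median was -0.17, and it ran from -0.29 without saline library 1 to -0.16 without Ang II library 2, with -0.02 without saline libraries 2 and 3. Lox, the lysyl oxidase that crosslinks collagen and elastin, was at 32.5, 49.5 and 33.8 CPM with saline and 29.4, 17.5 and 31.5 CPM with Ang II (log2 -0.56, SE 0.224, edgeR adjusted p = 0.785). Loxl1, a related oxidase of elastic fibres, was at 22.9, 24.1 and 39.4 CPM with saline and 18.6, 18.1 and 15.1 CPM with Ang II. Both oxidases were lower in each Ang II library. Timp1, an inhibitor of metalloproteinases, was at 3.99, 7 and 8.59 CPM with saline and 3.07, 3.77 and 3.51 CPM with Ang II, the opposite direction to Timp4. Adamts1, a protease that cleaves versican, was at 81.4, 79.96 and 85.1 CPM with saline and 96.4, 101 and 104 CPM with Ang II (log2 0.29, SE 0.08), higher in each Ang II library.

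In the TGF-beta pathway the ligands differed among themselves. Tgfb1 was at 15.9, 16.5 and 17.8 CPM with saline and 19.4, 16.4 and 16.2 CPM with Ang II (log2 0.05, SE 0.148). Tgfb2 was lower in each Ang II library, at 35.1, 58.8 and 47.5 CPM with saline and 34.8, 31 and 29.3 CPM with Ang II (log2 -0.57, SE 0.195), though its lowest saline and highest Ang II values almost met. Inhba, the activin beta chain, was at 10.3, 14.1 and 13.4 CPM with saline and 7.8, 9.67 and 5.5 CPM with Ang II (log2 -0.72, SE 0.217). Of the receptors, Tgfbr1, a serine kinase, was higher in each Ang II library, at 47.4, 45.4 and 42.8 CPM with saline and 54.1, 58.9 and 49.8 CPM with Ang II (log2 0.26, SE 0.0965). Over the pathway 15 of 23 genes were lower, 7 with no overlap (4.97% of all genes), and 8 higher, 1 with no overlap (4.94% of all genes). The median was -0.08, running from -0.12 without saline library 1 to -0.04 without saline library 2, and 0.03 without saline libraries 2 and 3, where 15 of 23 were higher.

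**Figure D3:**
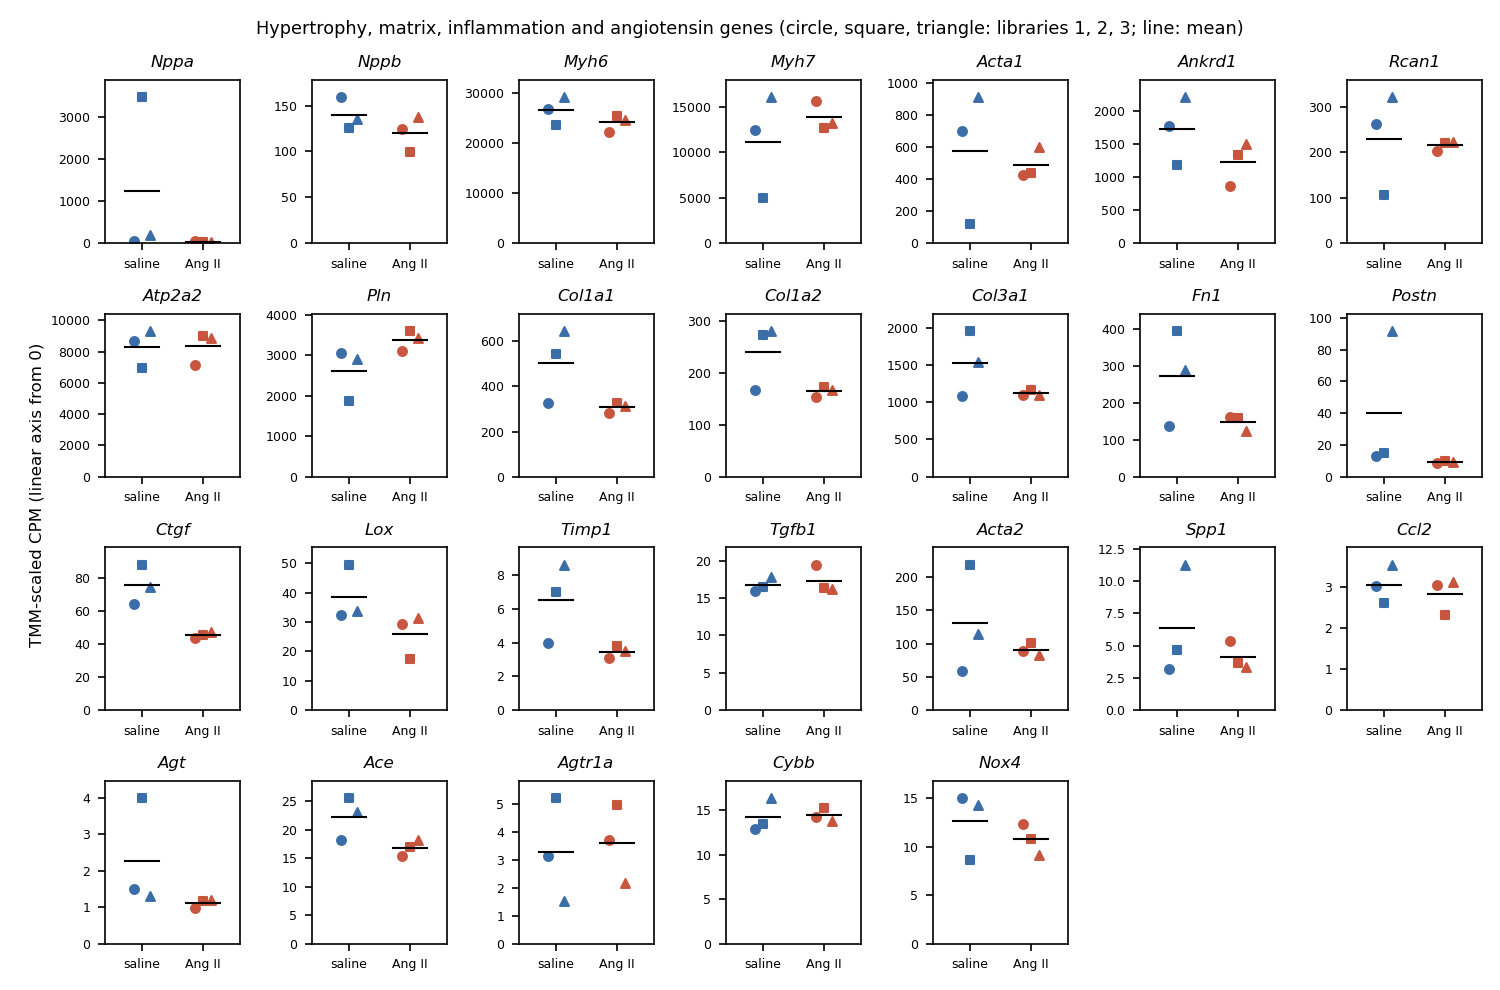
TMM-scaled CPM (linear axes from 0) of 26 genes followed in hypertrophy, fibrosis, inflammation and angiotensin signalling, with each library as a point (circle, square and triangle for libraries 1, 2 and 3) and the mean as a line. Saline points spread far more than Ang II points for most of the matrix genes: Fn1 runs from 137 to 395 CPM with saline and from 124 to 162 CPM with Ang II. Lox is an exception, from 32.5 to 49.5 CPM with saline and from 17.5 to 31.5 CPM with Ang II.

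Of 20 tested genes of hypertrophy and stretch 16 were lower and 4 higher with Ang II, with a median of -0.12. It ran from -0.30 without saline library 2 to 0.01 without saline library 3, and was -0.22 without both. Nppb, the natriuretic peptide of stretched ventricle, was at 159, 126 and 135 CPM with saline and 125, 99.9 and 137 CPM with Ang II (log2 -0.21, SE 0.145, edgeR adjusted p = 0.931). Acta1, the skeletal actin re-expressed in loaded heart, was at 699.9, 118 and 908 CPM with saline and 425, 436 and 596 CPM with Ang II, all inside the saline range. Ankrd1, a stretch-responsive repeat protein of the sarcomere, was at 1783, 1190 and 2211 CPM with saline and 874, 1331 and 1506 CPM with Ang II (log2 -0.48, SE 0.247). None of these 3 markers lay above saline in all Ang II libraries. Myh6, the fast myosin heavy chain of adult rodent ventricle, was at 26730, 23600 and 29040 CPM with saline and 22250, 25310 and 24630 CPM with Ang II (log2 -0.14, SE 0.116). For Myh7, whose values are given above, the 6 libraries gave a log2 difference of 0.31 (SE 0.319), and leaving out saline library 2 gave -0.04. Rcan1, a target and inhibitor of calcineurin, was at 263, 107 and 321 CPM with saline and 202, 221 and 224 CPM with Ang II. Xirp1, an actin-binding protein of intercalated discs, was the gene of this list higher in each Ang II library (4.94% of all genes). It was at 218, 221 and 244 CPM with saline and 254, 283 and 279 CPM with Ang II (log2 0.26, SE 0.092). In 3 genes of the list each Ang II library lay below each saline library (4.97% of all genes).

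The medians of the contractile and calcium-handling lists lay near 0 and moved with saline libraries 2 and 3, of which library 2 had the lowest ventricular transcripts. In no sarcomere gene of 25 were the groups apart (9.9% of all genes, in either direction), and the list median was -0.04. That median ran from -0.13 without saline library 2 to 0.15 without saline library 3, and was -0.05 without both. Of 24 calcium-handling genes 13 were higher, 2 with no overlap (4.94% of all genes), and 11 lower, 3 with no overlap (4.97% of all genes). Their median of 0.0050 ran from -0.07 without saline library 2 to 0.06 without saline library 3, and was -0.04 without both. Pln (phospholamban, the brake of the calcium pump) was at 3054, 1877 and 2912 CPM with saline and 3107, 3603 and 3420 CPM with Ang II (log2 0.37, SE 0.17, 0.18 without saline library 2). Atp2a2, the pump itself, was at 8663, 6977 and 9312 CPM with saline and 7162, 8998 and 8875 CPM with Ang II, a ratio of means of 1. Both were lowest in saline library 2. Cacna1g, a T-type calcium channel of atrium and conduction tissue, was at 19.5, 79 and 26.5 CPM with saline and 13.8, 14 and 12 CPM with Ang II (log2 -1.65, SE 0.424, -0.80 without saline library 2), but was higher with Ang II when only its highest transcript was counted (log2 0.78). Cacnb2, a subunit of the L-type channel, was at 105, 93.2 and 98.6 CPM with saline and 116, 115 and 118 CPM with Ang II (log2 0.24, SE 0.0932).

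Among 24 potassium and sodium channel genes 11 were higher and 13 lower, and without saline library 2 these counts were 14 and 10. Kcna5, a voltage-gated potassium channel, was at 11.4, 7.95 and 7.32 CPM with saline and 12.9, 12.5 and 12.7 CPM with Ang II (log2 0.51, SE 0.185), higher in each Ang II library. Hcn4, the pacemaker channel, was at 15.5, 7.37 and 22.5 CPM with saline and 8.82, 3.4 and 6.45 CPM with Ang II (log2 -1.28, SE 0.432, -1.61 without saline library 2 and -1.32 without libraries 2 and 3), with saline library 2 inside the Ang II range. Kcnj3, an atrial subunit of the acetylcholine-gated channel, followed saline library 2 instead, at 26.6, 107 and 30.6 CPM with saline and 32.5, 37.8 and 39.99 CPM with Ang II.

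Transcripts of the renin-angiotensin system were low or differed little between the groups. Of 21 tested genes 7 were higher and 14 lower, with a median of -0.11. It was -0.05 without saline library 2, -0.05 without Ang II library 3 and 0.02 without saline libraries 2 and 3, where 11 were higher. Agt, the precursor of angiotensin, was at 1.5, 3.99 and 1.31 CPM with saline and 0.994, 1.19 and 1.2 CPM with Ang II (log2 -1.01, SE 0.546, edgeR adjusted p = 0.894), with the saline mean set by library 2. Ace, the converting enzyme, was at 18.2, 25.5 and 23 CPM with saline and 15.4, 17 and 18.1 CPM with Ang II (log2 -0.40, SE 0.141, edgeR adjusted p = 0.744), where the lowest saline and the highest Ang II value differed by less than 1 CPM. The receptor Agtr1a varied as much within groups as between them, at 3.15, 5.21 and 1.54 CPM with saline and 3.7, 4.96 and 2.17 CPM with Ang II. Mme (neprilysin, a peptidase of natriuretic peptides and angiotensins) was higher in each Ang II library, at 3.84, 3.38 and 2.47 CPM with saline and 5.99, 4.15 and 3.95 CPM with Ang II (log2 0.54, SE 0.286). The receptor Agtr2 and Cyp11b2 (aldosterone synthase) were listed at 0 in every library, and Agtr1b reached at most 0.213 CPM.

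Of 26 genes of NADPH oxidase and antioxidant defence 16 were higher, with a median of 0.08. Without saline library 2 it was 0.01 with 14 higher, without Ang II library 3 0.05, and without saline libraries 2 and 3 0.04. Cybb, the catalytic subunit of phagocyte oxidase, was at 12.9, 13.4 and 16.3 CPM with saline and 14.2, 15.3 and 13.7 CPM with Ang II. Nox4, the constitutive oxidase of heart muscle, was at 15, 8.67 and 14.3 CPM with saline and 12.3, 10.8 and 9.1 CPM with Ang II. Rac2, the blood cell GTPase of the oxidase, had the largest log2 difference of the list, at 7.44, 11.9 and 10.8 CPM with saline and 16.8, 13.1 and 15.2 CPM with Ang II (log2 0.58, SE 0.217). Hmox1 (haem oxygenase, which degrades haem) was lower in each Ang II library, at 7.86, 9.12 and 8.51 CPM with saline and 5.93, 4.85 and 7.25 CPM with Ang II (log2 -0.50, SE 0.289). In the calcineurin, NFAT and MEF2 list, 15 of 27 genes were higher with a median of 0.0039, which ran from -0.02 without saline library 2 to 0.04 without saline library 3 and was 0.05 without saline libraries 2 and 3. Ppp3r1, the regulatory subunit of calcineurin, was at 97, 94.2 and 88.1 CPM with saline and 103, 108 and 108 CPM with Ang II (log2 0.19, SE 0.0817).

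Adrb1, the main beta adrenergic receptor of heart muscle, was lower in each Ang II library, at 8.67, 8.25 and 9.36 CPM with saline and 4.97, 6.07 and 6.86 CPM with Ang II (log2 -0.55, SE 0.21, edgeR adjusted p = 0.765). This difference was -0.60 without saline library 2 and -0.54 without saline libraries 2 and 3. Pde5a, which breaks down cyclic GMP, was higher in each Ang II library, at 12.2, 20.5 and 14.1 CPM with saline and 28.8, 24.4 and 31.8 CPM with Ang II (log2 0.86, SE 0.281, edgeR adjusted p = 0.743). Its difference grew to 1.10 without saline library 2 and 1.22 without saline libraries 2 and 3. Npr1, the receptor that makes cyclic GMP for natriuretic peptides, was at 35.5, 36.5 and 28.8 CPM with saline and 46.8, 37.3 and 38.8 CPM with Ang II (log2 0.29, SE 0.159). The clearance receptor Npr3 was at 27, 182 and 33.9 CPM with saline and 27, 24.7 and 17.9 CPM with Ang II, highest in saline library 2. Over the 28 genes of adrenergic and G protein signalling 11 were higher and 17 lower, and without saline library 2 there were 8 and 20.

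Energy metabolism genes differed in direction with and without saline library 2. In the fatty acid oxidation list 27 of 31 members averaged higher with Ang II (median 0.13), and 10 without that library (median -0.04). Of 42 oxidative phosphorylation genes 29 were higher (median 0.04), and 6 without it (median -0.17). Of 22 glycolysis genes 13 were higher, and 2 without it (median 0.03 and -0.13). The fatty acid oxidation median ran from -0.04 without saline library 2 to 0.26 without Ang II library 1, and the oxidative phosphorylation median from -0.17 without saline library 2 to 0.20 without saline library 3. The glycolysis median ran from -0.13 without saline library 2 to 0.16 without saline library 3, and leaving out Ang II library 2 or 3 also brought it and the oxidative phosphorylation median below 0. In saline library 2 the ventricular markers had a median log2 ratio of -1.03 to their mean over the 6 libraries, and the oxidative phosphorylation genes one of -0.52. Cd36, the fatty acid transporter, was at 917, 690.5 and 671 CPM with saline and 871, 993 and 1016 CPM with Ang II (log2 0.34, SE 0.143). Pdk4, the kinase that shuts off pyruvate oxidation, was at 148, 220 and 154 CPM with saline and 156, 291 and 258 CPM with Ang II (log2 0.43, SE 0.235), with Ang II library 1 inside the saline range.

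A pair of metabolic genes stood out from their lists. Sdhc, a membrane subunit of succinate dehydrogenase, was at 197, 137 and 206 CPM with saline and 47.8, 70.3 and 73.9 CPM with Ang II (log2 -1.49, SE 0.421, edgeR adjusted p = 0.719), and its difference was -1.66 without saline library 2 and -1.62 without saline libraries 2 and 3. Ppp1r3a, the muscle subunit that directs protein phosphatase to glycogen, was at 181, 22.7 and 142 CPM with saline and 36, 53.5 and 33.2 CPM with Ang II (log2 -1.49, SE 0.555, edgeR adjusted p = 0.758). Saline library 2 was the lowest of all 6 for Ppp1r3a, and saline libraries 1 and 3 were the highest; without library 2 edgeR called it (log2 -1.99, adjusted p = 0.0459; 0.0167 to 1 over the alternatives). Among 24 glycogen genes 15 were higher and 9 lower, and without saline library 2 there were 7 and 17. Ppp1r3d, another glycogen-targeting subunit, went the other way, at 49.8, 46.5 and 42.3 CPM with saline and 53.2, 59 and 62.4 CPM with Ang II (log2 0.33, SE 0.0976).

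Immune transcripts differed by class, with interferon and antigen presentation genes mostly higher and macrophage markers lower. Of 29 interferon response genes 26 were higher with Ang II (49.0% of all genes), 6 with no overlap (4.94% of all genes), and the median was 0.19 (0.15 without saline library 2, 0.10 without libraries 2 and 3). Ang II library 1 held the highest value of 17 of them, and the median without it was 0.15. Isg15, a ubiquitin-like interferon target, was at 2.43, 1.57 and 2.66 CPM with saline and 3.85, 3.43 and 2.66 CPM with Ang II. Rsad2, an antiviral enzyme named after its values were seen, was at 26.4, 23.2 and 21.9 CPM with saline and 37.9, 26 and 36.8 CPM with Ang II (log2 0.49, SE 0.156). Of 19 antigen presentation genes 17 were higher (median 0.18, 0.08 without saline library 2 and 0.09 without libraries 2 and 3). RT1-Bb, a class II chain, was at 3.42, 4.1 and 3.81 CPM with saline and 4.79, 4.99 and 6.33 CPM with Ang II (log2 0.51, SE 0.194). All 5 macrophage markers were lower (median -0.39, -0.33 without saline library 2 and -0.16 without libraries 2 and 3). Mrc1, the mannose receptor of resident macrophages, was at 61.2, 77.2 and 61.6 CPM with saline and 52.3, 48.4 and 46.6 CPM with Ang II (log2 -0.44, SE 0.116). Csf1r, the receptor that macrophages need to survive, was at 48.5, 64.5 and 63.6 CPM with saline and 39.3, 47.1 and 43.7 CPM with Ang II (log2 -0.44, SE 0.13). The groups were apart in both, with Ang II lower (4.97% of all genes).

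Of 26 cytokine, chemokine and adhesion genes 11 were higher and 15 lower, with a median of -0.08. The direction turned without saline library 2 (0.09, with 15 higher), without Ang II library 2 (0.02) and without saline libraries 2 and 3 (0.06), and without Ang II library 3 the median was -0.22. Ccl2, the monocyte chemokine, was at 3.03, 2.61 and 3.54 CPM with saline and 3.04, 2.32 and 3.12 CPM with Ang II. Spp1 (osteopontin) was at 3.18, 4.68 and 11.2 CPM with saline and 5.39, 3.69 and 3.35 CPM with Ang II. Sele (E-selectin of activated endothelium) was at 4.2, 4.68 and 4.04 CPM with saline and 10.3, 4.64 and 8.55 CPM with Ang II (log2 0.86, SE 0.278), so Ang II library 2 stayed within the saline range. Ptgs2 (cyclooxygenase) was at 0.69, 4.47 and 2.77 CPM with saline and 0.421, 0.697 and 0.624 CPM with Ang II, highest in saline library 2. The 6 endothelial markers had a median log2 difference of 0.09, which was 0.01 without Ang II library 1, the library with the highest value of 5 of them. Kdr, the receptor of vascular endothelial growth factor, was at 395, 332 and 390.2 CPM with saline and 451, 401 and 416 CPM with Ang II. Lymphocyte markers were at low levels, with sums of 2.79 to 5.64 CPM with saline and 5.57 to 6.35 CPM with Ang II.

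Cell cycle genes were lower in 20 of 30 cases (median -0.12, running from -0.17 without Ang II library 1 to -0.04 without Ang II library 2). Aurkb, a mitotic kinase at low level, was at 1.08, 1.04 and 0.462 CPM with saline and 0.421, 0.116 and 0.208 CPM with Ang II, lower in each Ang II library. Ccne2, a cyclin of entry into DNA synthesis, was at 8.1, 8.11 and 6.09 CPM with saline and 9.39, 8.68 and 10.8 CPM with Ang II (log2 0.37, SE 0.167). Of 18 glucocorticoid and stress hormone response genes 14 were higher (median 0.15, running from 0.10 without saline library 3 to 0.21 without saline library 2, and 0.26 without saline libraries 2 and 3). Of these Cdkn1a alone was higher in each Ang II library (4.94% of all genes). Immediate early genes had a median of 0.06, which ran from 0.02 without saline library 3 to 0.23 without saline library 2 and was 0.23 without saline libraries 2 and 3. Heat shock genes had a median of -0.02, which ran from -0.14 without saline library 2 to 0.11 without saline library 3. Endoplasmic reticulum stress genes had a median of -0.07, which ran from -0.07 without Ang II library 2 to -0.04 without Ang II library 1, and clock genes one of -0.01, which ran from 0.01 without saline library 3 to 0.05 without Ang II library 1. In the clock list Dbp, an output gene of the clock, was at 50.9, 31.5 and 45.3 CPM with saline and 58.3, 54.9 and 56 CPM with Ang II (log2 0.41, SE 0.156). It was the list's gene with no overlap, higher with Ang II (4.94% of all genes).

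**Figure D4:**
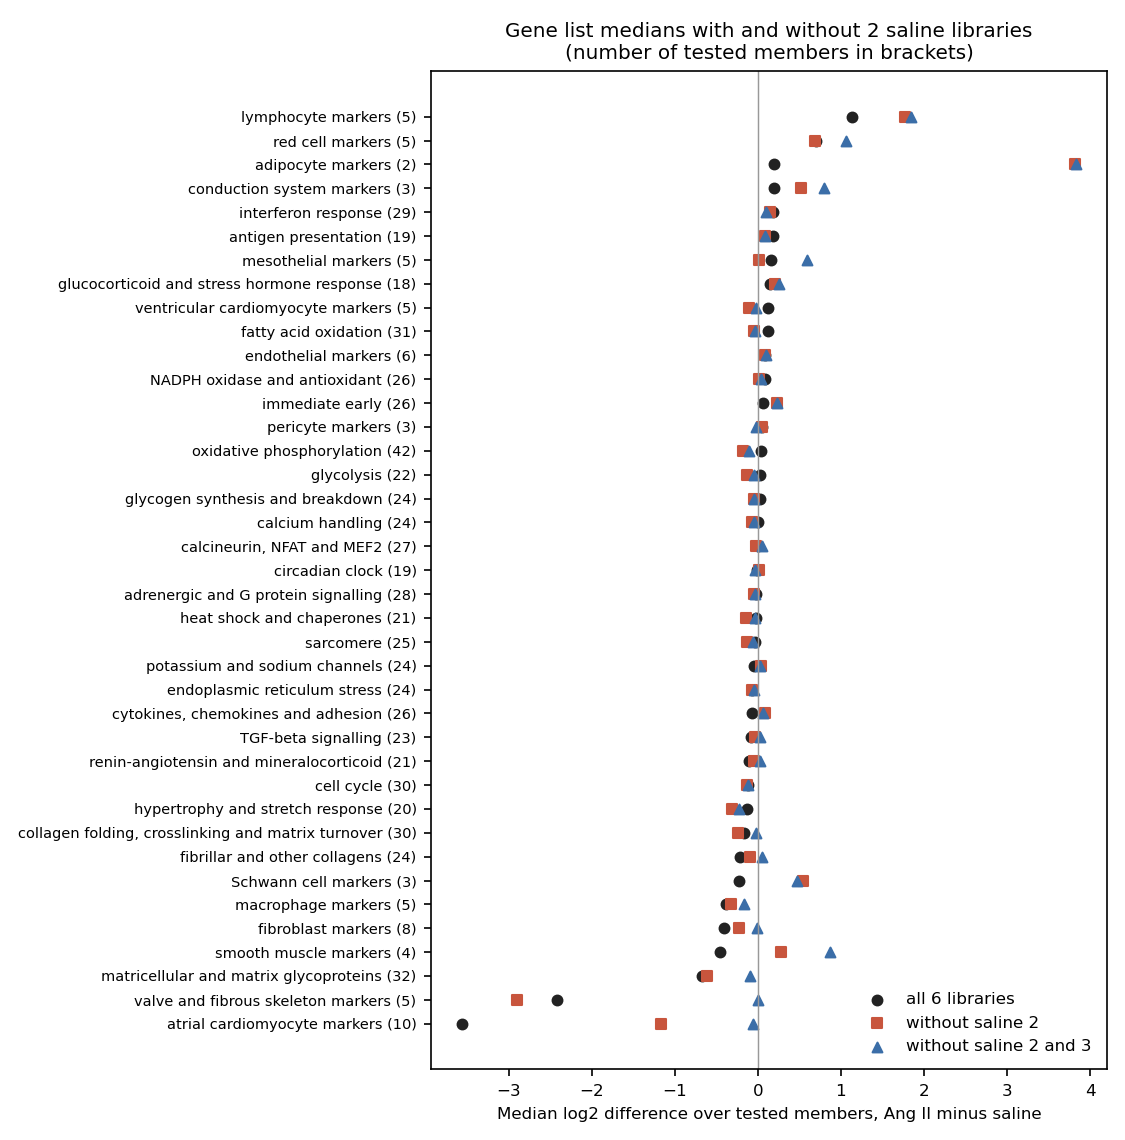
Median log2 difference (Ang II minus saline) over the tested members of each of 39 gene lists, with all 6 libraries (black circles), without saline library 2 (red squares) and without saline libraries 2 and 3 (blue triangles). The atrial median moves from -3.56 to -1.17 and -0.06, while the red cell median stays above 0 at 0.70, 0.69 and 1.06; the adipocyte, conduction and mesothelial medians rest on 2, 3 and 5 genes.

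**Figure D5:**
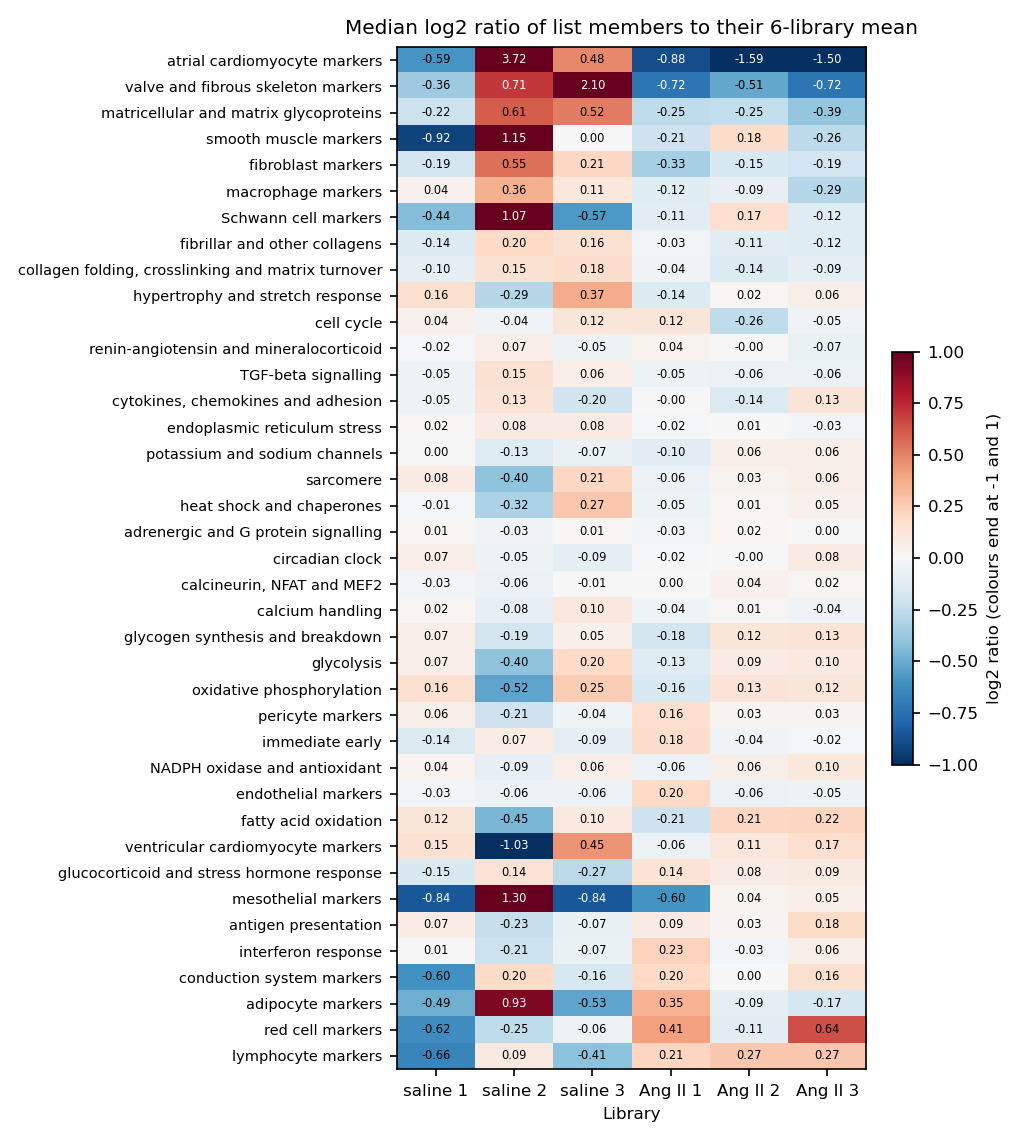
Median log2 ratio of each list's members to their mean over the 6 libraries, by library, with colours ending at -1 and 1. Saline library 2 reads 3.72 for atrial and -1.03 for ventricular markers, and saline library 3 reads 2.10 for valve markers.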

How the data were processed

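RNA from rat left ventricle was sequenced as 9 libraries; per the labels' protocols total RNA came from Trizol extraction and DNase treatment, with TruSeq library preparation. The submitters' processing notes name Bowtie 0.12.2, and as build the mouse assembly mm8. The transcripts carry rat RefSeq identifiers, and how the build was used is not given in the sources used here. The authors deposited estimated counts per transcript in 3 tables, 1 for each group. What 1 sequenced fragment is worth in these values is not given in the sources used here; a floor of 12 estimated counts was set by choice for a gene at 0 in a whole group, and counts divided by 4 were an alternative. The last column of the saline table holds a stray carriage return on every line, which was stripped; its values are deposited estimated counts as in the other tables. The series' design text describes another tissue and was not used.

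The estimated counts of 55767 transcripts, deposited as whole numbers, were summed to 22608 gene names. R 4.3.3 with edgeR 4.0.16 (TMM scaling, filterByExpr, quasi-likelihood test, default prior count, Benjamini-Hochberg adjusted p under 0.05) was fitted to all 9 libraries, which share 1 estimate of the spread, and 15467 genes were tested. Alternatives used DESeq2 1.42.0, limma 3.58.1 (voom), other scalings and filters, and libraries left out; the DESeq2 fits with a library left out, or with 6 libraries, were chosen after its calls were seen. Counts were also simulated for 15286 genes from their mean levels over the libraries, with 1 common spread for all genes. In these, edgeR found 2.99% of genes changed 1.5-fold, 46.3% changed 2-fold and all 66 changed 4-fold. DESeq2 found 7.46%, 49.3% and 98.5%, and the false calls were 10 for edgeR and 16 for DESeq2. The simulation held no library set apart as saline libraries 2 and 3 were. It also gave each gene the common biological coefficient of variation, 0.256, although real genes differ in their spread. Among real genes with a mean of at least 5 CPM the median SE of the log2 difference was 0.147. These shares may therefore not hold for the real libraries or for a typical real gene.

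Genes named are the 12 of smallest edgeR p in each direction with a mean of at least 5 CPM and groups that do not overlap, the 8 of smallest DESeq2 p in each direction, core genes of the model (27 are reported), and, from each of 39 gene lists, up to 3 members with the highest and 3 with the lowest differences; names added after values were seen are marked. The members and lists were chosen with earlier results of these data known. Of 698 distinct listed genes 4 were not matched to a name in the tables. Promoter sequences are from RefSeq, build GRCr8. No library was left out of the fit. A few genes are not reported here.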

Additional observations from a re-analysis of the deposited data

How the results depend on the processing

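At an adjusted p under 0.05 edgeR called 0 genes with all libraries and under the other scalings and filters, limma's voom fit and the replicate block; DESeq2 called 57, edgeR with only the 6 libraries called 1, counting only the highest transcript called 3, and leaving out saline libraries 2 and 3 together called 11. Leaving out 1 library gave 0 to 7 calls, with 7 without saline library 1 (among them Ltbp3, Sfrp2 and, named after its value was seen, Bgn). Genes whose groups did not overlap numbered 1532 with all libraries, 1556 to 3756 with 1 left out, and 7972 without saline libraries 2 and 3, where fewer libraries make separation easier by construction. DESeq2 with only the 6 libraries called 36 genes. The summed atrial level of saline library 2 was 6039 CPM and 6883 CPM with library totals only.

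Of 39 list medians 20 were below 0, and 15 to 24 under the alternatives, but 12 had another sign without saline library 2 and 15 without saline libraries 2 and 3. Over 81 single genes and all alternatives 33 of 1776 values reversed, in 17 genes; the cause was not tested. With libraries 2 and 3 of saline left out the log2 differences that reversed were -0.054 for Atp2a2, 0.053 for Col3a1, 0.12 for Fn1, 0.62 for Acta2, 0.38 for Spp1, 0.12 for Hamp, 0.68 for Myl7 and 0.093 for Bmp10. The replicate block gave 0.14 for Acta1 and 0.038 for Rcan1, library totals 0.017 for Rcan1, voom -0.0050 for Atp2a2 and 0.14 for Acta2, and the highest transcript -0.50 for Agtr1a, -0.38 for Ahnak and 0.78 for Cacna1g. With 1 library left out the ranges that crossed 0 were -0.043 to 0.67 for Myh7, -0.73 to 0.25 for Acta1, -0.44 to 0.22 for Rcan1, -0.11 to 0.12 for Atp2a2, -0.018 to 0.10 for Tgfb1, -0.88 to 0.067 for Acta2, -0.94 to 0.072 for Spp1, -0.22 to 0.017 for Ccl2, -0.21 to 0.61 for Agtr1a and -0.042 to 0.13 for Cybb.

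Deviations from the group means correlated across genes with r from -0.07 to -0.03 between libraries of the same number. Between libraries of unlike number r ran from -0.03 to 0.08. The labels do not say whether the numbers pair the libraries, and with 3 libraries in each group these values cannot settle it. With the replicate block and only the 6 libraries edgeR called 0 genes, against 1 without the block. How many sequenced fragments lie behind 1 estimated count is unknown, so no counting interval is given.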
